A study of Mus musculus with 6 samples.

Results

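The small leucine-rich proteoglycans are short secreted proteins built from leucine-rich repeats, and 10 genes of this family, Dcn, Bgn, Aspn, Fmod, Lum, Prelp, Kera, Omd, Ogn and Epyc, were followed by name among the 22609 gene symbols of the count table. All 10 had a row, and 9 of them entered the test between zones, which ran on 13119 genes (10 or more counts in 2 or more libraries). Epyc was below that minimum. The RNA came from mandibular condyles of CD-1 mice, an outbred strain, at postnatal day 7, with no treatment and no allele named for either zone. Cells were cut by laser from frozen sections, by the look of the tissue and not by a marker gene, out of the articular zone (replicates 2, 3 and 4) and out of the mature zone beneath it (replicates 2 and 3). Each library is a pool of sections, called an independent biological replicate by the labels. The sources used here do not give the number of animals, so captures may share an animal, and the p-values measure the spread between these pools and may then be too small.

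Proteins of this family sit on collagen fibrils, where they steer how fibrils grow and pack, and several hold growth factors in the matrix. They are grouped by protein structure. Class I holds Dcn, Bgn and Aspn, class II holds the fibromodulin relatives Fmod, Lum, Prelp, Kera and Omd, many of which can carry keratan sulfate chains, and class III holds Ogn and Epyc. Mice that lack Bgn together with Fmod are known to develop early osteoarthritis of the temporomandibular joint, the joint this condyle belongs to.

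All members but Bgn lie in clusters with other members or close relatives, given here in build GRCm38. Dcn (chr10:97479609-97518143), Lum (chr10:97565128-97572703), Kera (chr10:97606879-97613692) and Epyc (chr10:97644068-97682454) follow each other on the plus strand over 202.8 kb. Ecm2, a related matrix gene, is followed by Aspn (chr13:49544443-49567565), Omd (chr13:49582462-49592822) and Ogn (chr13:49608046-49624501), all on the plus strand over 119.7 kb. Prelp (chr1:133910304-133921414, minus strand) and Fmod (chr1:134037254-134048277, plus strand) lie 115.8 kb apart, and Bgn is alone at chrX:73483602-73495933. The bases before 5 of these genes are shown because the 3 chromosome 13 neighbours differed in the direction of their zone values while the chromosome 1 pair shared theirs. RefSeq, in build GRCm38.p6, gave promoter records of 300 bases for 8 of the 10 members, all but Dcn and Lum, and the part before the start site is printed 5′ to 3′ on the strand of the gene, less 13 bases for Prelp that an exon covers. Capitals mark, on either strand, 3 motifs: TATAAA for the basal promoter box, AACAAT for the SOX core and TGTGGT for the RUNX core. The windows are chr13:49544193-49544442 for Aspn, chr13:49582212-49582461 for Omd, chr13:49607765-49608014 for Ogn, chr1:133921415-133921651 (minus strand) for Prelp and chr1:134037004-134037253 for Fmod.
Aspn: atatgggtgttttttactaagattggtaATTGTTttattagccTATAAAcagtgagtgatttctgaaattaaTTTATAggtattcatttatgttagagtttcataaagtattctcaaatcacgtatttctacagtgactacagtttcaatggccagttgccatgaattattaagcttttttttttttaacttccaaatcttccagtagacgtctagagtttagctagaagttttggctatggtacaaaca
Omd: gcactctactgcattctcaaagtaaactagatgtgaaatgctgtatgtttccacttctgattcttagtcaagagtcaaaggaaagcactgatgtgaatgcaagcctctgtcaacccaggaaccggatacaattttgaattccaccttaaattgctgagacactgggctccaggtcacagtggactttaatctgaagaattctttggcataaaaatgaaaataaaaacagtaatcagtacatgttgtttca
Ogn: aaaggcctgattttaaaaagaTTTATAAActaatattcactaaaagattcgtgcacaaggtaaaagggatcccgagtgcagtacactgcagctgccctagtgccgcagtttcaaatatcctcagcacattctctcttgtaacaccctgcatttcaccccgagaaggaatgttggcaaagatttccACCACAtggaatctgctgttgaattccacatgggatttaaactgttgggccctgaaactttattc
Prelp: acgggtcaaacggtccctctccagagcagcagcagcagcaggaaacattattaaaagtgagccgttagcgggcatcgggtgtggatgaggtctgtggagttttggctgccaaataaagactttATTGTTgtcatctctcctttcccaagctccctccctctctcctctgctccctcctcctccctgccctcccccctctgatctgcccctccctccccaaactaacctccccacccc
Fmod: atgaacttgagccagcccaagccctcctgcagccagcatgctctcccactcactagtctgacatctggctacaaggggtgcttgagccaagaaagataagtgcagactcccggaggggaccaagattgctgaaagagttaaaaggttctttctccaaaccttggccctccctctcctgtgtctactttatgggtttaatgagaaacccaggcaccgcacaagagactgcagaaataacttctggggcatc
TATAAA was found on either strand in the full records of Aspn and Ogn, 2 of the 8 members, and in 13.6% of 32851 promoter records. In Ogn the matches on both strands overlap each other. AACAAT was present in 5 of the 8 (Aspn, Epyc, Kera, Ogn and Prelp) and in 10.7% of all records, and the match of Ogn lies outside the printed bases. In the Kera record, an exon covers all 250 bases before the start site. The 8 members had 9 records, and a member counts if any of its records matched, whereas the percentages are of records. TGTGGT was present in Epyc and Ogn and in 16.8% of all records. The loose E-box pattern CANNTG, not capitalised, was present in 6 of the 8 and in 72.3% of all records. The printed bases of Omd and Fmod held none of the 3 capitalised motifs. These matches describe letters only.

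Total counts were 15449883 to 18884685 in articular zone libraries and 15555620 and 16302047 in mature zone libraries. Of the 13119 genes tested with edgeR's quasi-likelihood test, 150 were higher in the articular zone (1.14%) and 243 were lower (1.85%) at an adjusted p under 0.05. The zone labels were set against marker lists. Summed over 10 chondrocyte markers, among them Col2a1 and Acan, the level in CPM (counts per 1000000 counts of a TMM-scaled library) was 1615 to 2893 in the articular zone, against 22439 and 37964 CPM in the mature zone, and 9 of the 10 were lower. Of 6 superficial and fibrous markers, 3 were higher, but Prg4, the lubricin gene that defines the joint surface, had only 32, 11 and 57 counts in articular zone libraries and 11 and 0 counts in mature zone libraries. Skeletal muscle markers summed to 1620, 44.3 and 25.2 CPM in articular zone replicates 2, 3 and 4 and to 1366 and 99.7 CPM in mature zone replicates 2 and 3, so both libraries numbered 2 stood apart.

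Together the family took 1.07%, 1.08% and 1.08% of all counts in the articular zone, against 0.888% and 0.842% in the mature zone. Levels are compared between genes as FPKM, a fragment count divided by exon length and by the number of mapped fragments. Summed over the 10 genes the FPKM was 1611, 1756 and 1811 in articular zone libraries and 1473 and 1198 in mature zone libraries, a mean of 1726 ± 104 (SD, n = 3) against 1335 ± 194 (SD, n = 2). The difference was 0.38 on the log2 scale for FPKM and 0.11 for CPM, so its size depended on the unit and the library scaling. CPM here is TMM-scaled, whereas the shares of all counts above are not. The TMM factors were 1.099, 1.024 and 1.053 in articular zone libraries and 0.9344 and 0.9024 in mature zone libraries.

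The makeup of that sum differed between zones. Class I supplied 72.5%, 65.5% and 69.4% of the summed FPKM in the articular zone, against 47.5% and 43.0% in the mature zone. Class II supplied 26.4%, 33.8% and 29.4% in the articular zone, against 52.0% and 56.4% in the mature zone. The zones did not overlap in either share, and no test was made on these sums because their members were picked by name. Dcn alone made up 29.7% ± 2.53 in articular zone libraries and 14.9% ± 2.62 in mature zone libraries (SD, n = 3 and 2). Fmod ran the other way, with 14.5% ± 2.53 in articular zone libraries and 29.6% ± 5.62 in mature zone libraries. Lum took 12.3% ± 1.47 in the articular zone, against 12.6% ± 0.644 in the mature zone.

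**Figure D1:**
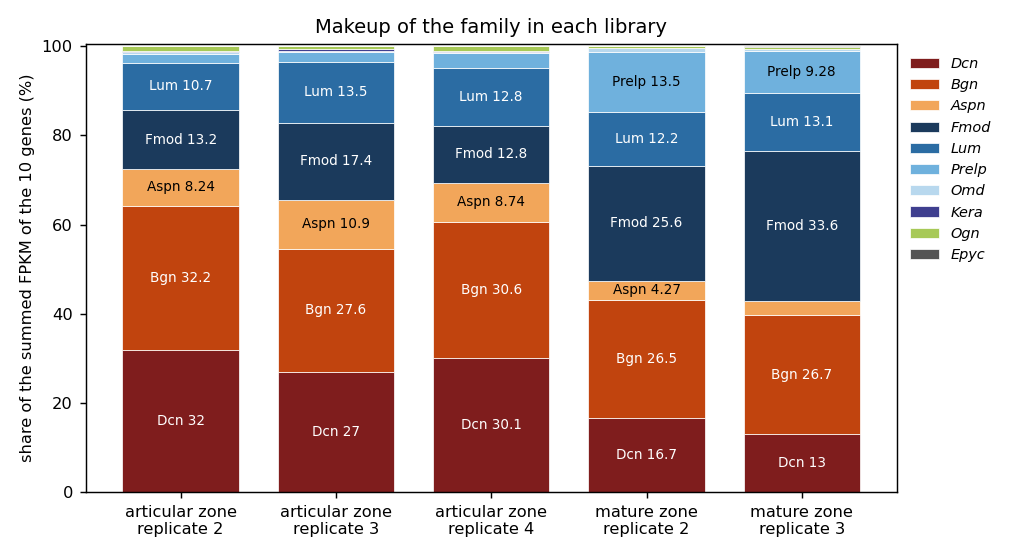
Share of the summed FPKM of the 10 genes (y axis, %) taken by each gene in the 3 articular zone libraries (left) and the 2 mature zone libraries (right). Dcn, Bgn and Aspn together fill 65.5% to 72.5% of the articular zone bars and 43.0% and 47.5% of the mature zone bars.

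Ordered by mean FPKM, the articular zone ran Bgn (519 ± 34.7), Dcn (511 ± 35.4), Fmod (249.7 ± 48.7), Lum (214 ± 36.2), Aspn (161 ± 29.9), Prelp (44.0 ± 15.6), Ogn (17.1 ± 4.60), Omd (5.65 ± 0.778) and Kera (4.20 ± 1.96), with Epyc at the 0.1 floor of the table. The library ranges of Bgn and Dcn overlapped, as did those of Fmod and Lum, Lum and Aspn, and Omd and Kera. In the mature zone the order was Fmod (389.7 ± 17.5), Bgn (355 ± 49.3), Dcn (201 ± 63.9), Lum (168 ± 16.0), Prelp (155 ± 61.7), Aspn (50.6 ± 17.3), Omd (8.22 ± 3.92), Ogn (6.48 ± 1.03), Epyc (0.987 ± 1.25) and Kera (0.131 ± 0.0436). There, Fmod and Bgn overlapped, as did Dcn and Lum, Lum and Prelp, Omd and Ogn, and Epyc and Kera. Bgn ranked between 45 and 90 among all gene symbols in every library, and Dcn ranked 49, 64 and 50 in the articular zone libraries and 146 and 222 in the mature zone libraries.

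Between zones, 2 of the 9 tested members were higher in the articular zone, Dcn and Aspn, and 1 was lower, Prelp, against the 1.14% and 1.85% of all genes given above and 3.00% in either direction. A log2 fold change here is the articular over the mature zone, and adjusted p-values are Benjamini-Hochberg values from edgeR over all 13119 genes. The median log2 fold change was 0.27 over the 9 tested members and 0.07 over all genes tested. In 8 of the 9 the CPM of the zones did not overlap, 5 with the articular zone above (21.1% of all genes tested) and 3 with it below (17.6%, and 38.7% in either direction). Lum was the exception. In FPKM Omd overlapped as well, at 6.05, 4.75 and 6.14 in articular zone libraries and 10.98 and 5.45 in mature zone libraries. These libraries are mixtures, so fewer cells of a type and less RNA per cell cannot be told apart for any of these genes.

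**Figure D2:**
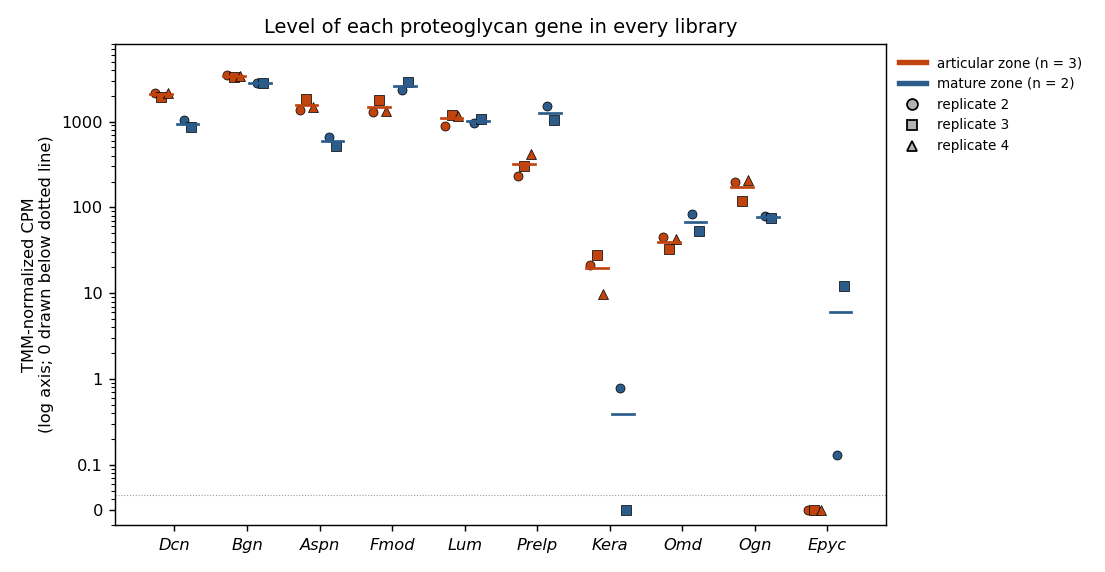
TMM-normalized CPM (y axis, log scale, with 0 drawn below the dotted line) of each of the 10 genes in each library, articular zone points left of mature zone points, with horizontal bars for the zone means. The zones separate for Dcn, Aspn, Prelp and others, whereas the points of Lum mix.

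Among class I, decorin (Dcn), which binds collagen fibrils and TGF-beta, had 2164, 1945 and 2139 CPM in articular zone replicates 2, 3 and 4, against 1032 and 864 CPM in mature zone replicates 2 and 3. Every articular zone library stood above both mature zone libraries. The mean was 2082 ± 120 in articular zone libraries and 948 ± 119 in mature zone libraries (SD, n = 3 and 2), and the log2 fold change was 1.14 (SE 0.17) with an edgeR adjusted p of 0.0163. The call was lost without articular zone replicate 2, 3 or 4 (adjusted p = 0.0523, 0.0552 and 0.122 in edgeR) and without mature zone replicate 3 (0.0608).

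Asporin (Aspn), named for its run of aspartate residues and also a binder of collagen and TGF-beta, had 1368, 1820 and 1489 CPM in the articular zone, against 661 and 512 CPM in the mature zone. The lowest articular zone library thus lay well above the highest mature zone library. Its log2 fold change was 1.41 (SE 0.21) with an edgeR adjusted p of 0.0161, lost without articular zone replicate 3 (0.0594) or 4 (0.101) and without mature zone replicate 3 (0.0590). The Aspn exons share 0.297% of their length with the opposite-strand gene Cenpp.

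Biglycan (Bgn), the close relative of decorin and the most abundant member per length in the articular zone, had 3525, 3298 and 3417 CPM there, against 2846 and 2810 CPM in the mature zone. The zones did not overlap, but the step was small, at a log2 fold change of 0.27 (SE 0.14) with an edgeR adjusted p of 0.333, and did not pass. The ratio of Dcn to Bgn within a library removes any scaling between libraries. Per length it was 0.993, 0.978 and 0.983 in the articular zone, against 0.631 and 0.487 in the mature zone, a difference of 0.83 on the log2 scale. An exact two-sided permutation test gave p = 0.1, the smallest value that the 10 arrangements of 3 against 2 libraries allow, so no such ratio can pass 0.05. The ratio of Aspn to Dcn, whose lowest articular zone value almost met the highest mature zone value, was 0.257, 0.405 and 0.291 in the articular zone against 0.255 and 0.246 in the mature zone (log2 difference 0.32, exact permutation p = 0.2).

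Of class II, Prelp, whose protein has an arginine- and proline-rich start that binds heparan sulfate, had the largest called difference of the family. It had 233, 303 and 423 CPM in the articular zone, against 1503 and 1030.2 CPM in the mature zone, with no overlap. The mean of 320 ± 96.1 in articular zone libraries and 1267 ± 334 in mature zone libraries (SD, n = 3 and 2) gave a log2 fold change of -1.99 (SE 0.28), 3.96-fold lower, with an edgeR adjusted p of 0.0150. Without articular zone replicate 3 or 4 the adjusted p was 0.0774 and 0.0727. In rank by FPKM, Prelp stood at 1171, 1009 and 651 in the articular zone libraries and at 200 and 329 in the mature zone libraries. Its exons share 9.68% of their length with the opposite-strand gene Gm15851. The chondrocyte marker sum was lower in the same 3 articular zone libraries (1615 to 2893 CPM, against 22439 and 37964 CPM), and its part in the Prelp difference was not tested.

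Fibromodulin (Fmod), which binds fibrillar collagen and is abundant in tendon and cartilage, had 1280.5, 1792 and 1317 CPM in the articular zone, against 2344 and 2905 CPM in the mature zone. No articular zone library reached the mature zone range, yet the log2 fold change of -0.84 (SE 0.20) did not pass, with an edgeR adjusted p of 0.0717. DESeq2 gave an adjusted p of 0.00112, and edgeR without mature zone replicate 2 gave 0.0365. The same chondrocyte marker values stand beside this difference, and their part in it was not tested.

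Lumican (Lum), which shares collagen binding sites with fibromodulin, was the member with no separation between zones. It had 898, 1206 and 1161 CPM in articular zone libraries and 955 and 1075 CPM in mature zone libraries, and the log2 fold change was 0.10 (SE 0.19, edgeR adjusted p = 0.838). The Fmod to Lum ratio per length was 1.24, 1.29 and 0.999 in the articular zone, against 2.10 and 2.56 in the mature zone, a log2 difference of -0.99 (exact permutation p = 0.1, the smallest possible). Fmod relative to Lum was thus higher in both mature zone libraries than in any articular zone library.

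Keratocan (Kera), best known as a keratan sulfate proteoglycan of the cornea, was a rare transcript here with the widest separation of the tested members. It had 366, 441 and 194 counts (21.1, 27.9 and 9.75 CPM) in the articular zone, against 12 and 0 counts (0.788 and 0 CPM) in the mature zone. The fitted log2 fold change was 5.59 with an SE of 1.43, and the edgeR adjusted p of 0.0849 did not pass. DESeq2 gave 2.55e-05, and edgeR without mature zone replicate 2 gave 0.00979, where the comparison is against 0 counts and the fitted size has no meaning. The 5 tendon markers summed to 407, 89.5 and 242 CPM in the articular zone, against 84.2 and 41.7 CPM in the mature zone. None of them was called by edgeR. The log2 fold change was above 0 for 3 of them and below 0 for Scx (-0.92) and Mkx (-0.21). Tnmd was at 0 in both mature zone libraries and also in articular zone replicate 3, where Kera was highest. The part of the tendon markers in the Kera difference was not tested.

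Osteomodulin (Omd), a proteoglycan of bone matrix that binds mineral, had 44.7, 32.6 and 42.3 CPM in the articular zone, against 82.7 and 52.6 CPM in the mature zone. The groups did not overlap, but the log2 fold change of -0.76 (SE 0.33, edgeR adjusted p = 0.246) did not pass. Markers of osteoblasts summed to 355, 649 and 1039.95 CPM in articular zone libraries and to 1077 and 768 CPM in mature zone libraries, where the zones overlapped.

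In class III, osteoglycin (Ogn), also called mimecan, had 198, 118 and 207 CPM in the articular zone, against 79.4 and 75.9 CPM in the mature zone. The articular zone libraries were all above both others and spread widely among themselves. The log2 fold change of 1.16 (SE 0.29) did not pass with edgeR (adjusted p = 0.0796) and did with DESeq2 (0.00381). Articular zone replicates 2 and 4, the higher libraries for Ogn, also had more endothelial marker RNA (122 and 94.8 CPM, against 10.6 CPM in replicate 3, and 17.5 and 0.142 CPM in the mature zone) and more myeloid marker RNA (245 and 110 CPM, against 19.3 CPM in replicate 3, and 51.1 and 31.7 CPM in the mature zone). The part of those cells in the Ogn values was not tested.

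Epiphycan (Epyc), a proteoglycan of epiphyseal cartilage, had 0 counts in all 3 articular zone libraries and 2 and 170 counts in mature zone replicates 2 and 3. Set against a floor of 3 counts over the whole articular zone, it was at least 104-fold lower there, but this rests on mature zone replicate 3 alone, since 2 counts are under the floor. That library also had the highest chondrocyte marker sum (37964 CPM). Of the exon length of Epyc, 40.6% overlaps Gm10754 on the other strand, which had 0 counts in every library as counted.

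**Figure D3:**
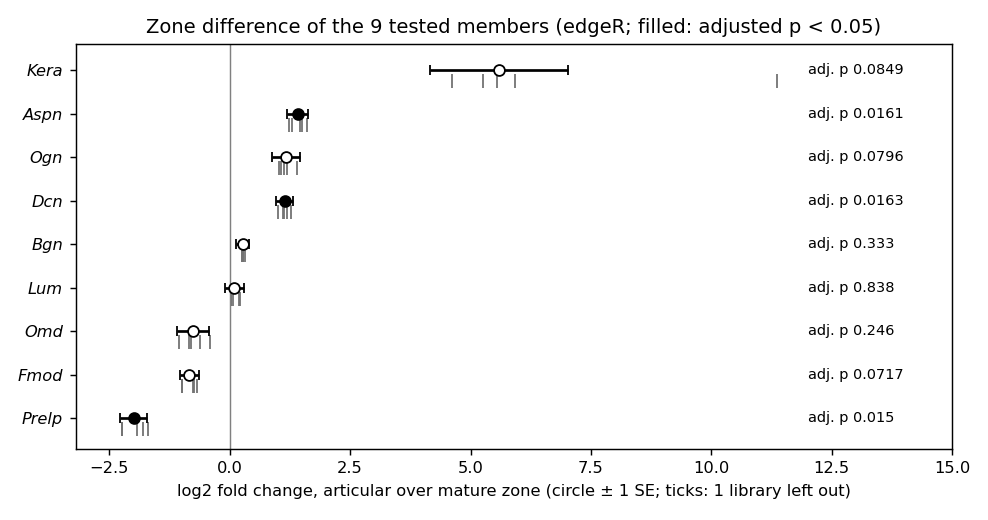
Log2 fold change of the 9 tested members, articular over mature zone (x axis, circle ± 1 SE, filled where the edgeR adjusted p is under 0.05), with ticks for the fits that leave out 1 library each. Dcn (1.14) and Aspn (1.41) are filled to the right, Prelp (-1.99) is filled to the left, and Kera has the longest error bar.

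Along chromosome 13, the log2 fold changes ran 1.34 (SE 0.42, edgeR adjusted p = 0.130) for Ecm2, 1.41 for Aspn, -0.76 for Omd and 1.16 for Ogn, with gaps of 11.7, 14.9 and 15.2 kb between the genes. Omd thus had the opposite sign from the genes on both sides of it, although of these 4 only Aspn passed the test. On chromosome 10, Dcn at 1.14 and Lum at 0.10 lie 47.0 kb apart, followed by Kera at 5.59. On chromosome 1, Prelp at -1.99 and Fmod at -0.84 had the same sign.

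**Figure D4:**
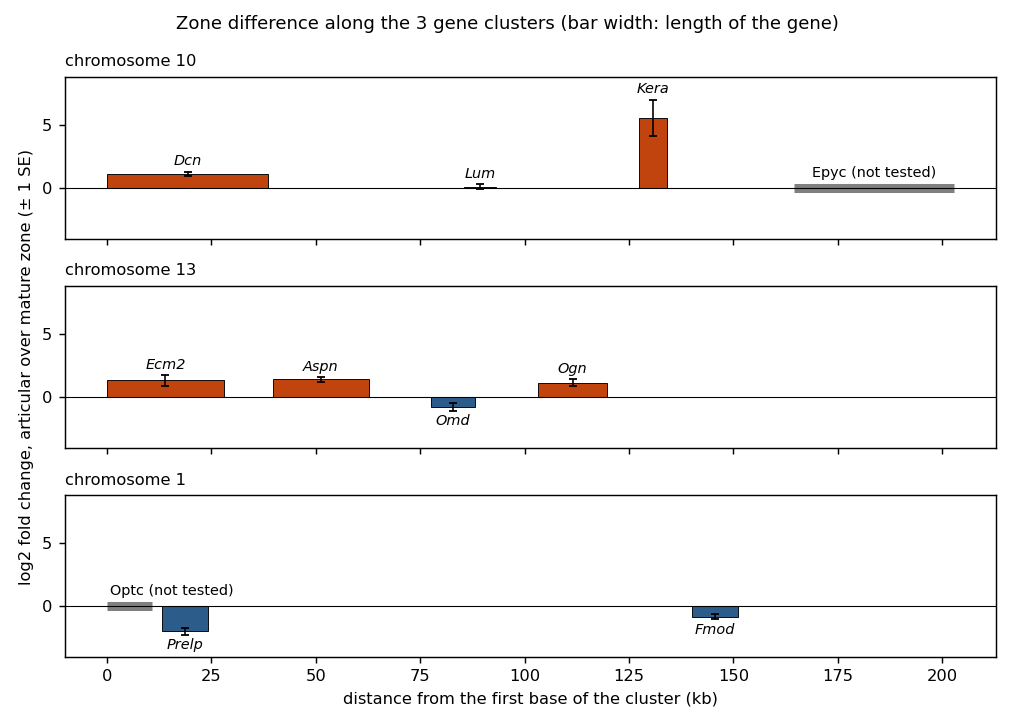
Log2 fold change, articular over mature zone (y axis, ± 1 SE), as a bar over the length of each tested gene, with distance from the first base of its cluster in kb (x axis), for chromosomes 1, 10 and 13. Omd (-0.76) lies below 0 between Aspn (1.41) and Ogn (1.16).

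For members that passed or differed by more than 2-fold, the genes with the nearest profile were sought among 10277 genes with a mean of at least 5 CPM. The measure is the root mean square difference of centred log2 CPM over the 5 libraries, where 0 is an identical profile. Dcn was nearest to Phip (0.0709), Whsc1l1 (0.0843) and Ski (0.0896). For Aspn they were Aes (0.0885), Rab27b (0.101) and Stmn1 (0.114), and for Ogn March2 (0.0997), Spr (0.1002) and Itpr1 (0.123). Prelp had more distant neighbours, Esm1 (0.167), Swap70 (0.207) and Pus7l (0.209). Kera was the farthest from any other gene, with A830007P12Rik (0.399), Gm13212 (0.443) and Plxna2 (0.546). None of these nearest genes was itself a family member.

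Genes that make, bind, cleave or sense these proteoglycans were grouped by role, and each count below is of genes past an edgeR adjusted p of 0.05. At that threshold 1.14% of all genes tested were higher and 1.85% were lower. Of 11 enzymes that build the chain linkage region or dermatan sulfate, all were tested, none was higher and 2 were lower, with a median log2 fold change of -0.27. Fam20b, the kinase that phosphorylates the linkage xylose, averaged 49.9 ± 16.8 CPM in articular zone libraries and 329 ± 84.2 CPM in mature zone libraries (SD, n = 3 and 2; log2 fold change -2.72, SE 0.32, edgeR adjusted p = 0.0104). It passed in 4 of the 5 fits that leave out 1 library, the exception being without articular zone replicate 4 (0.0670). Xylt1, which adds that xylose to the protein, averaged 14.1 ± 2.53 CPM in articular zone libraries and 83.2 ± 69.5 CPM in mature zone libraries (-2.56, SE 0.54, 0.0489), and passed only without mature zone replicate 2 (0.00415) among those 5 fits. Both enzymes also serve the aggrecan of chondrocytes, whose markers fell with them, and the part of those cells in either was not tested.

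Of 10 keratan sulfate enzymes, 9 were tested and none passed in either direction, although the log2 fold change of all 9 was above 0 under each library scaling and the median was 1.41. Chst1 turned below 0 without articular zone replicate 2 or mature zone replicate 3, and St3gal2 without both libraries numbered 2. At an unadjusted p under 0.05 there were 2, both higher (10.8% of all genes tested were higher at that threshold), DESeq2 called 2 higher (7.90% of all genes) and limma-voom called none. In edgeR, B4galt1 passed with upper-quartile scaling and with 10 counts in every library, and B4galt1 and B4galt4 passed with no low count filter. B4galt1 also passed in both filtered FPKM fits, and B4galt4 and Chst2 passed without mature zone replicate 2 (6.57% of all genes) and without both libraries numbered 2 (8.49%). The most abundant were B4galt1, a galactosyltransferase, with 232 ± 32.95 CPM in articular zone libraries and 119 ± 17.4 CPM in mature zone libraries (0.96, SE 0.22, edgeR adjusted p = 0.0640), and St3gal1, a sialyltransferase, with 73.8 ± 1.29 CPM in the articular zone against 72.6 ± 0.688 CPM in the mature zone (0.02, SE 0.24, 0.973). The others averaged between 1.37 CPM (B3gnt7) and 33.03 CPM (Chst2) in the articular zone. Chst2 had 65.2, 6.00 and 27.9 CPM in articular zone replicates 2, 3 and 4, against 5.51 and 0 CPM in the mature zone. B4galt1, B3gnt2, B3gnt7, Chst5, St3gal1 and St3gal2 were likewise lowest in replicate 3 of the articular zone libraries, while B4galt4 and Chst1 were not. B4galt4 had 6.63, 6.82 and 10.4 CPM in the articular zone, against 0 and 1 counts in the mature zone. The endothelial and myeloid marker sums given for Ogn were also lowest in articular zone replicate 3, and their part in these values was not tested.

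Of 11 collagens bound by the family, 1 was higher and none was lower, with a median of -0.34. Col3a1, the chain of type III collagen, averaged 12146 ± 722 CPM in articular zone libraries and 6834 ± 373 CPM in mature zone libraries (0.83, SE 0.14, edgeR adjusted p = 0.0263). It passed without mature zone replicate 2 (0.0256) and was lost in the other 4 fits that leave out 1 library (0.0623 to 0.149). Col2a1, the type II collagen of cartilage, had 50.4, 543 and 408 CPM in the articular zone, against 10750.5 and 20774 CPM in the mature zone. Its log2 fold change of -5.56 (SE 1.11) did not pass (edgeR adjusted p = 0.0896). DESeq2 called all 10 chondrocyte markers lower, Col2a1 among them. Of the 11 collagens DESeq2 called 1 higher and 2 lower, against 7.90% and 5.84% of all genes. The paper chose Col2a1 from genes it called differentially expressed (DESeq, FDR under 0.05) and reported it lower in the articular zone by qRT-PCR. Col3a1 is also 1 of the superficial and fibrous markers counted above.

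Of 18 receptors and bound ligands, 16 were tested, 2 were higher and none was lower, with a median of 1.02. Egfr, the epidermal growth factor receptor, which decorin can bind, averaged 111 ± 18.05 CPM in articular zone libraries and 15.8 ± 4.34 CPM in mature zone libraries (2.81, SE 0.33, edgeR adjusted p = 0.0101), and was lost only without articular zone replicate 4 (0.0831). Tgfb3, a TGF-beta ligand, averaged 133 ± 23.0 CPM in articular zone libraries and 48.3 ± 5.20 CPM in mature zone libraries (1.47, SE 0.26, 0.0292). It passed without mature zone replicate 2 (0.0379) and missed in the other 4 such fits (0.0672 to 0.124).

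Neither of the other lists had a gene past the edgeR threshold with all 5 libraries. Of 12 proteases that process or cleave these proteins, 9 were tested, with a median of 0.52, and the most abundant were Mmp2, a gelatinase (0.52, SE 0.15, edgeR adjusted p = 0.121), and Pcolce, an enhancer of procollagen cleavage (-0.25, SE 0.17, 0.467). Of 8 other leucine-rich repeat proteoglycans, 6 were tested, with a median of 0.64. At an unadjusted p under 0.05 there were 4 proteases and 2 of these other proteoglycans, against 20.1% of all genes tested. DESeq2 called 4 proteases higher and, of the other proteoglycans, 1 higher and 1 lower, against 7.90% of all genes higher and 5.84% lower, and limma-voom called none of either list. Mmp13, a collagenase, passed in edgeR without mature zone replicate 2. The most abundant of these other proteoglycans over the 5 libraries after Ecm2 was Tsku (tsukushi), with 15.1 ± 0.250 CPM in the articular zone, against 15.3 ± 9.16 CPM in the mature zone (-0.02, SE 0.59, edgeR adjusted p = 0.989).

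**Figure D5:**
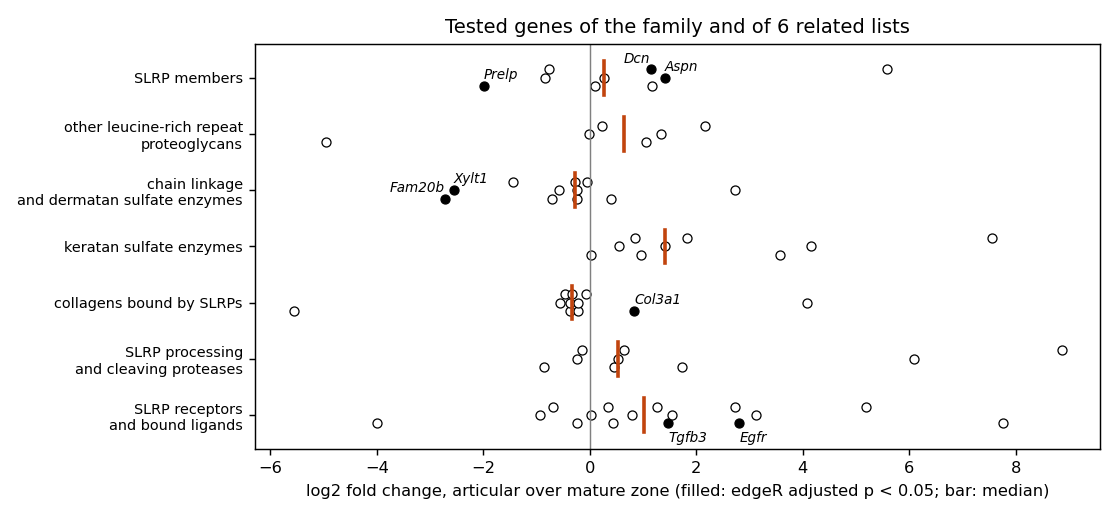
Log2 fold change, articular over mature zone (x axis), of every tested gene of the family and of the 6 related lists (rows), filled where the edgeR adjusted p is under 0.05, with a bar at each median. Keratan sulfate enzymes all lie above 0 (median 1.41) with none filled, and the linkage and dermatan sulfate enzymes hold 2 filled points below 0.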

How the data were processed

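The authors built single-end poly(A) libraries with a kit that is not described as marking strand, trimmed the reads with Trimmomatic 0.32, mapped them to mm10 with SHRiMP and tested genes with DESeq. The sources used here do not give the read counting tool or its use of strand. The counts were deposited by the authors as raw reads per gene symbol. The FPKM values were also deposited by the authors, for 22462 symbols, with 0.1 as the lowest value. The deposited DESeq table (zone means, fold changes and p-values) was not used. Mature zone replicate 4 mapped poorly per the labels and was not analysed here, which left 5 of 6 samples.

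Counts were normalized by TMM and tested with edgeR 4.0.16 (R 4.3.3, quasi-likelihood, zone as the only term, 3 residual degrees of freedom, common biological coefficient of variation 0.68), Benjamini-Hochberg over 13119 genes. The alternatives used limma 3.58.1 (voom, or log2 FPKM with a pseudocount of 1 or 0.1), DESeq2 1.42.0, other scalings and filters, the replicate number as a block, and fits without 1 library. The edgeR, limma and DESeq2 fits were run on simulated counts with less spread than these data, where the FPKM fit took CPM. Those runs do not show how the fits behave at the spread found here. Tables and exact permutation tests used Python 3.11.15 with scipy 1.17.1. All 10 members were named. Of each related list, called genes were named, or the 2 most abundant where none was called. Members, lists and tests were chosen with earlier results of these data known. Gene positions come from GENCODE M21 and the marker lists share Col1a1, Col3a1, Col2a1 and Kdr with the related lists. With edgeR, no tendon, osteoblast, skeletal muscle, erythroid or myeloid marker passed (1, 2, 0, 1 and 1 at an unadjusted p under 0.05, against 20.1% of all genes tested). DESeq2 called 2 osteoblast markers and 1 erythroid marker higher, against 7.90% of all genes. Of the endothelial list, 1 gene was higher with edgeR (1.14% of all genes) and 2 with DESeq2 (7.90%).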

Additional observations from a re-analysis of the deposited data

How the results depend on the processing

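No member, ratio or sum changed sign under any alternative tried. Members called higher (2 as reported) came to 4 with no low count filter, with DESeq2 and with limma on unfiltered log2(FPKM + 1), to 1 with the replicate block, to 0 at an adjusted p under 0.01, and to 0 to 3 when each library was left out. For comparison, 1.54% of all genes were higher with no low count filter and 7.90% with DESeq2. Unfiltered log2(FPKM + 1) called 495 of 22462 genes higher, and the replicate block called 80 of 13119. Without articular zone replicate 2, 3 or 4, 15 of 12497, 26 of 12826 and 0 of 12571 genes were higher. In those fits 1, 0 and 0 members were called higher. Members called lower (1 as reported) came to 2 with no filter, with 10 counts in every library, with limma-voom and with DESeq2. Of all genes, 2.10%, 3.36%, 2.48% and 5.84% were lower in those settings. Members called lower came to 0 at an adjusted p under 0.01. They came to 1, 0 and 0 without articular zone replicate 2, 3 or 4 (0.664%, 0.468% and 0.103% of all genes). The fit without both libraries numbered 2 was chosen after seeing the data. With the replicate number as a block, the edgeR adjusted p was 0.0537 for Dcn, 0.0963 for Col3a1, 0.0741 for Tgfb3 and 0.182 for Xylt1. Those 4 calls were lost, while Aspn, Prelp, Egfr and Fam20b still passed. The block left 1 residual degree of freedom, against 3 without it, and articular zone replicate 4 had no mature zone partner. Pairing and the loss of degrees of freedom cannot be told apart in that fit. The numbers were shared by only 2 pairs of libraries, with correlations of deviations from the zone means of 0.145 and 0.131. The same articular zone libraries gave -0.145 and -0.131 with the mature zone library of the other number. With 2 mature zone libraries the deviations mirror each other, so these values cannot decide whether libraries were paired. Both libraries numbered 2 had the highest skeletal muscle marker sums (1620 and 1366 CPM), and a shared source was not tested. In the related lists (3 higher and 2 lower as reported) higher calls were 5 with no filter and with unfiltered log2(FPKM + 1), 11 with DESeq2, 10 without both libraries numbered 2, and 0 to 8 when each library was left out. The higher calls were 5 of 66 with no filter, 5 of 70 with unfiltered log2(FPKM + 1) and 11 of 62 with DESeq2. Over all genes the higher calls in those settings were 1.54%, 495 of 22462 and 7.90%. The shares without mature zone replicate 2 and without both libraries numbered 2 are given above with the keratan sulfate enzymes. Each of those fits left 1 mature zone library. Lower calls in these lists were 1 of 62 with upper-quartile scaling, 1 of 45 with filtered log2(FPKM + 1) and 7 of 62 with DESeq2. Of all genes, 1.53%, 2.08% and 5.84% were lower in those settings. Lower calls were 2, 1 and 0 without articular zone replicate 2, 3 or 4. The log2 difference of the summed level was 0.11 in CPM, 0.57 without both libraries numbered 2, and 0.23 to 0.53 when each library was left out. The log2 ratio differences ranged over 0.64 to 1.02 (Dcn to Bgn), 0.13 to 0.45 (Aspn to Dcn) and -1.13 to -0.85 (Fmod to Lum) in the same fits. Over all genes, 393 calls became 1802 with DESeq2, 593 with no filter and 225 with the block. Unfiltered log2(FPKM + 1) called 495 higher and 271 lower. Without articular zone replicate 2, 3 or 4 there were 98, 86 and 13 calls. The FPKM fits moved the median log2 fold change of all genes by 0.192, 0.17 and 0.212, in the direction of the articular zone. The cause of these differences was not tested. With 3 and 2 libraries, small differences such as that of Bgn could not be resolved, and Kera and Epyc rest on few counts in the mature zone.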
